A study of Homo sapiens with 2 samples.

Results

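Core and linker histone genes were defined as the protein-coding genes of GENCODE release 44 on chromosomes 1 to 22 and X whose symbols belong to the H1, H2A, H2B, H3 and H4 classes. There were 95 such genes among 19970 protein-coding genes. A total of 71 were replication-dependent genes by symbol and 24 were replacement genes.

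Histone proteins package DNA into nucleosomes. Core histones H2A, H2B, H3 and H4 form the nucleosome particle and the linker histone H1 binds the DNA between particles. Replication-dependent histone genes lie in clusters, have no introns and are transcribed in S phase, when new DNA has to be packaged. Their mRNAs are not polyadenylated and end in a stem-loop that is bound by SLBP and cut with the help of the U7 snRNP. Replacement histone genes, such as those of H2A.Z and H3.3, lie elsewhere and are expressed throughout the cell cycle, mostly as polyadenylated mRNAs. Other genes counted here as replacement genes are used mainly in germ cells, such as H1-8 in the oocyte and H2BW1 in the testis. H2A and H2B genes often stand head to head and share the DNA between their start sites as a promoter.

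OMM2.3 cells, an established uveal melanoma line, were profiled by CUT&Tag for R-loops, structures in which RNA pairs with one DNA strand and displaces the other. There was 1 library of control cells (shCtrl) and 1 library of cells with a hairpin against APOBEC3B (shA3B), the cytidine deaminase A3B. Cells of both groups were transfected with a plasmid for V5-tagged RNASEH1_D210N, an RNASEH1 that binds R-loops without cutting them. A V5 antibody marked the bound sites, where a Tn5 transposon cut and tagged the DNA for sequencing. The deposited measurement was 1 list of 562 regions from the authors' comparison of shA3B with shCtrl.

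The list gave only chromosome, start and end on GRCh38. It did not state whether the R-loop signal at a region rose or fell, and it held no count or score, so the depth behind each region was unknown. With 1 library per group there was no replicate check and no test between the groups. A gene was said to have a region when the midpoint of a listed region was within 3 kb of any of its transcription start sites (TSSs). APOBEC3B itself (chr22:38982347-38992804) had no region. Its nearest region midpoint was 664621.5 bp away, and the list cannot show whether the knockdown worked.

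The results below turn largely on divergent H2A-H2B promoters, so the DNA between both canonical TSSs is shown for 5 of the 12 such pairs, read from the GRCh38 reference. The first 3 pairs had a region and the last 2 did not. Capitals mark 3 promoter elements on either strand. The first is CCAAT, which appears as ATTGG where it lies on the other strand. The second is the TATA box, searched as TATAAA. The third is the octamer ATTTGCAT, which appears as ATGCAAAT where it lies on the other strand. Neighbouring elements may overlap. H2AC14/H2BC14 is printed on the minus strand, because it is an inverted near copy of H2BC13/H2AC13, and the others are printed on the plus strand.
H2BC4/H2AC6, chr6:26123927-26124171, plus strand, with a region: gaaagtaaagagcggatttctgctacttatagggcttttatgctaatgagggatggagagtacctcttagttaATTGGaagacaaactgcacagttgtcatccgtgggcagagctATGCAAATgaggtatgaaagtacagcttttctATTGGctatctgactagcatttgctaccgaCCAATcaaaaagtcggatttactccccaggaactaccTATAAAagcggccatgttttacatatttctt
H2BC11/H2AC11, chr6:27132796-27133042, plus strand, with a region: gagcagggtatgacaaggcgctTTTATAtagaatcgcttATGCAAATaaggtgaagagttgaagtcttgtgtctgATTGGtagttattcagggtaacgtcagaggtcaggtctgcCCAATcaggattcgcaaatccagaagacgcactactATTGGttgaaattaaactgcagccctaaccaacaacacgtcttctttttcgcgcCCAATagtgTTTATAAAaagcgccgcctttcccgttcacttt
H2BC13/H2AC13, chr6:27807930-27808172, plus strand, with a region: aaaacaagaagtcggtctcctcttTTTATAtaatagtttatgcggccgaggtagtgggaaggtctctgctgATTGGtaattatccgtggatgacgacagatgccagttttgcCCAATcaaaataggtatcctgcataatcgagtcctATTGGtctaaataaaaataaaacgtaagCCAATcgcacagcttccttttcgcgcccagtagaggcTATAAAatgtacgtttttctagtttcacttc
H2AC14/H2BC14, chr6:27814778-27815021, minus strand, without a region: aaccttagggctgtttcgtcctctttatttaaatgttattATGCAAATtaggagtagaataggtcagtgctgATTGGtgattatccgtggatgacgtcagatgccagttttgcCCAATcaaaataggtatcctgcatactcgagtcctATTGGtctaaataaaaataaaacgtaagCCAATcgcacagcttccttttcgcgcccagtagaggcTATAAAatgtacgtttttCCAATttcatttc
H2AC7/H2BC7, chr6:26199294-26199515, plus strand, without a region: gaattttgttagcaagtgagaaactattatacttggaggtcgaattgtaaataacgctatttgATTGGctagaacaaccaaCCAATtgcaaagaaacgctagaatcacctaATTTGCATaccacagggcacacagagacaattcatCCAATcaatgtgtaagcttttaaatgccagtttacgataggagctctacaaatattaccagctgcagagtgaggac

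All 22 histone genes with a region were replication-dependent. They made up 31% of the 71 replication-dependent genes (95% Wilson interval 21.4 to 42.5%), against 2.19% of all protein-coding genes under the same rule. None of the 24 replacement genes had a region, a count whose Wilson interval reaches 13.8%. The interval for replacement genes therefore includes the share of all protein-coding genes and lies below that of the replication-dependent genes. This separation depended on counting a region for every histone gene in reach. When each region counted only for the gene with the nearest TSS, 11 of 71 replication-dependent genes had one (15.5%, 8.88 to 25.7%), an interval that overlaps that of the replacement genes. Gene kind was also largely tied to place. Chromosome 6 holds 55 of the 71 replication-dependent genes, 20 of the 22 with a region, and no replacement gene. On chromosome 1, 2 of 14 replication-dependent genes had a region, and on other chromosomes 0 of 2 had one. Intervals describe shares of annotated genes only, and they treat neighbouring genes as independent although such genes often shared a region. At 4 of the 24 replacement genes, H3-7, H2AB1, H2AB2 and H2AB3, copied sequence may limit the placing of reads. Their promoters had 0 to 27.7% unique 31-base words, a measure explained below.

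Among the replication-dependent genes, the H2B class had the highest share, with 9 of 19 genes (47.4%, 27.3 to 68.3%). H2A followed with 6 of 17 genes (35.3%, 17.3 to 58.7%). The linker histone class H1 had 2 of 6 genes (33.3%, 9.68 to 70%) and H3 had 4 of 14 genes (28.6%, 11.7 to 54.6%). H4 had the lowest share, 1 of 15 genes (6.67%, 1.19 to 29.8%). The 5 intervals overlap, so the order of the classes is a description of this list, and it moved with the rule. H3 had 2 genes with a region within 1 kb, and 1 when each region counted only for the nearest TSS, the same number as H4. H1 also had 1 gene under both of these rules. All 15 H4 genes are replication-dependent. On chromosome 6, 1 of 12 H4 genes had a region (1.49 to 35.4%). There, 6 of 12 H2A genes (25.4 to 74.6%) and 8 of 15 H2B genes (30.1 to 75.2%) had one, and these intervals overlap. The gap between H4 and these classes narrowed with nearest-TSS counting over all chromosomes, to 3 H2A genes, 5 H2B genes and 1 H4 gene.

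**Figure D1:**
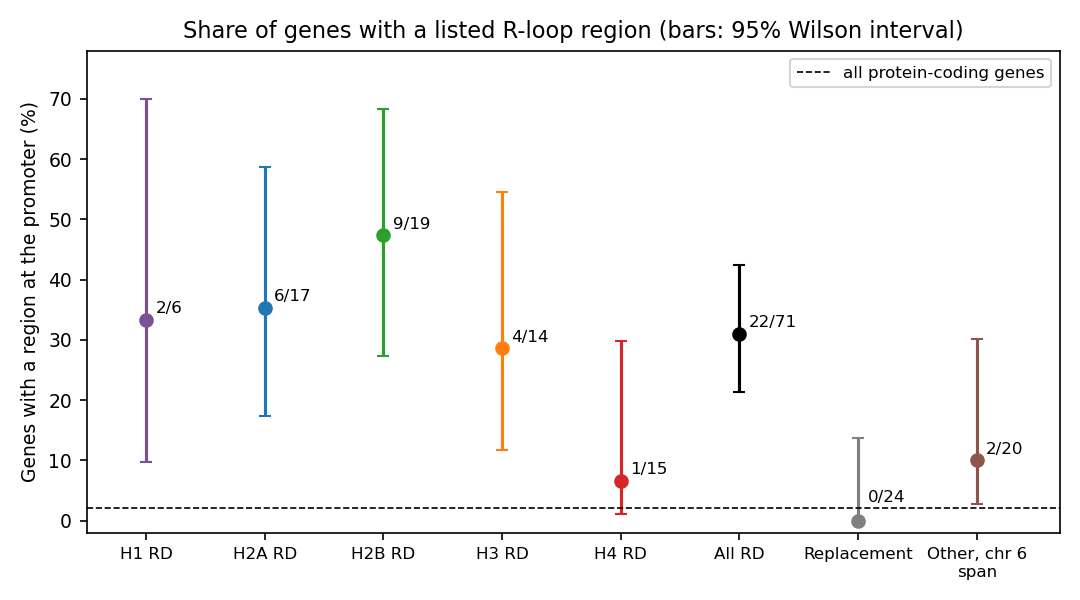
Percent of genes with a listed R-loop region within 3 kb of a TSS (vertical axis) for replication-dependent (RD) genes by class, all RD genes, replacement genes and the other protein-coding genes between the first and last chromosome 6 histone gene, with counts beside the points, 95% Wilson intervals as bars and the 2.19% of all protein-coding genes as a dashed line. H2B stands highest at 9 of 19 genes, H4 lowest of the RD classes at 1 of 15, and replacement genes at 0 of 24.

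By place, 20 of the 22 genes were on chromosome 6, where 55 replication-dependent genes lie between positions 25723397 and 27893891. Within this stretch of 2.17 Mb, 36.4% of the histone genes had a region (24.9 to 49.6%). Of the 20 other protein-coding genes there, 2 had one (10%, 2.79 to 30.1%). These were HMGN4, which encodes a nucleosome-binding protein, with a midpoint 272 bp from a TSS, and ZNF184, a zinc finger gene, at 125.5 bp. The intervals of histone genes and of these neighbours overlap. The list held 56 of its 562 regions in the stretch, of which 10 were at histone promoters and 46 elsewhere in it. Regions were thus frequent here away from histone promoters too, so the 2.19% of all protein-coding genes is not a local background.

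The chromosome 6 genes fall into a pair at the start (H2AC1/H2BC1, no region) and 3 sub-clusters separated by gaps of over 200 kb. The largest, from H1-1 to H4C8 (chr6:26017032-26285638), had regions at 8 of 32 genes (25%, 13.3 to 42.1%). The small sub-cluster from H2BC11 to H2AC12 (chr6:27125897-27147562) had regions at 4 of 5 genes (80%, 37.6 to 96.4%), with H4C9 as the exception. The last one, from H2BC13 to H2BC17 (chr6:27807479-27893891), had regions at 8 of 16 genes (50%, 28 to 72%). Genes with and without a region alternated in 14 runs along the chromosome. The first 10 genes, H2AC1 to H3C3, had none, and 12 neighbouring genes from H2BC6 to H4C7 also had none. The longest run with regions had 5 genes, H2BC12 to H3C10, and it crosses the gap between the last sub-clusters.

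**Figure D2:**
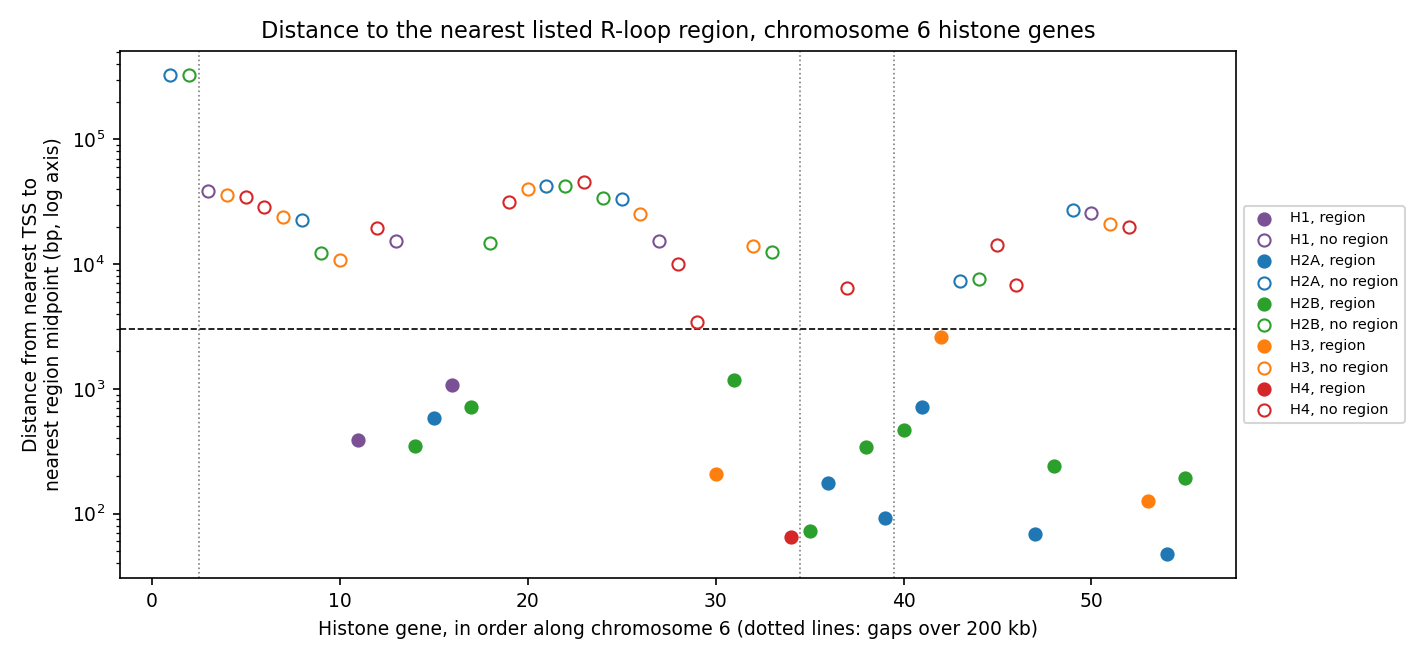
The 55 chromosome 6 histone genes in genomic order (horizontal axis) against the distance in bp from the nearest TSS to the nearest region midpoint (vertical log axis), coloured by class, filled where the gene had a region, with a dashed line at 3000 bp and dotted lines at gaps over 200 kb. Runs of 10 and 12 genes without a region lie left of position 30, and the 12 H4 genes include a single filled point, H4C8.

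The 22 genes shared 11 regions, which were 1.96% of the list. Of the 11 regions, 2 marked a single histone gene, 7 marked 2 and 2 marked 3. None of the 11 lay within 3 kb of the TSS of a protein-coding gene that was not a histone gene. Other annotated genes were within 3 kb at 5 of the 11, so these regions cannot be assigned to the histone genes alone. They were a lncRNA gene at H4C8, a lncRNA gene and a gene of unclear type at H1-4/H2BC5, another of unclear type at H2BC4/H2AC6, the miRNA gene MIR3143 at H2BC12/H2AC12 and the pseudogene H4C10P at H2BC13/H2AC13. Genes that this release does not hold were not searched for, so the other 6 regions cannot be assigned to histone genes alone either. The midpoint was 32 to 713 bp from the nearest histone TSS, with a median of 92 bp (95% interval of the median 64.5 to 386 bp), or 219.8 bp over the wider 50% of the listed regions. A TSS lay inside the region for 19 of the 22 genes. The exceptions were H3C13, H2BC9 and H3C10, whose midpoints were 1387, 1187 and 2592.5 bp away, at a neighbouring histone gene.

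Linker histone genes had the widest regions. H1-2, whose region was chr6:26054834-26057334, stood alone under 2501 bp, with the midpoint 386 bp downstream of its TSS. H1-4 shared the region chr6:26156080-26158738 with H2BC5, and at 2659 bp this was the widest of the 11. Both H1 coding sequences were wholly inside. The H1-4 region began upstream of its TSS and ran on over the whole coding sequence of H2BC5, so its midpoint was 1080 bp downstream of the H1-4 TSS and 713 bp upstream of the H2BC5 TSS. The other 4 replication-dependent H1 genes of chromosome 6 had no region, and their nearest midpoints were 15421.5 to 38297 bp away.

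Most H2A and H2B genes with a region belonged to divergent pairs. There were 12 such pairs, defined as an H2A and an H2B gene head to head with canonical TSSs within 1 kb. In 6 pairs both genes had a region, in 6 neither had, and in no pair did a single gene have one. All 6 pairs with a region were on chromosome 6, which holds 10 of the 12. On that chromosome 6 of the 10 pairs had a region (60%, 31.3 to 83.2%), against 2 of the 7 H2A and H2B genes outside pairs (28.6%, 8.22 to 64.1%). The intervals overlap, and a share of pairs is set here beside a share of single genes. Outside pairs, 0 of 2 H2A genes and 2 of 5 H2B genes had a region. Most chromosome 6 H2A and H2B genes are in pairs in any case, 20 against 7 outside. Since paired TSSs are 194 to 251 bp apart, a region at one gene almost always falls within 3 kb of the other, so both genes of a pair count as 1 observation.

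In each of the 6 pairs a single region spanned both canonical TSSs. The H2BC4/H2AC6 region (chr6:26122710-26124403) was 1694 bp wide, covered the whole H2BC4 coding sequence and 43.8% of that of H2AC6. The H2BC11/H2AC11 region (chr6:27132195-27133540) was 1346 bp wide and covered both coding sequences in full. At H2BC12/H2AC12 (chr6:27146642-27147754) the region was 1113 bp wide and covered 41.5% of H2BC12 and all of H2AC12.

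The H2BC13/H2AC13 region (chr6:27806574-27808343) was the widest of the 6 at 1770 bp. It covered all of H2BC13 and 34.4% of H2AC13, and its midpoint was also within reach of the H3C10 TSS, although it covered none of that gene's coding sequence. The H2AC15/H2BC15 region (chr6:27837711-27838902), 1192 bp wide, covered all of H2AC15 and 63.8% of H2BC15. The H2AC17/H2BC17 region (chr6:27892632-27893833), 1202 bp wide, covered all of H2AC17 and 98.1% of H2BC17. It also held the TSS of an alternative H3C12 transcript, but 0% of the H3C12 coding sequence.

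These regions had no common side. The midpoint lay on the H2B side of the pair centre in 3 pairs, by 492.5 bp at H2BC4/H2AC6, 51.5 bp at H2BC11/H2AC11 and 592.5 bp at H2BC13/H2AC13. It lay on the H2A side in the other 3, with offsets towards the H2B gene of -217.5, -165.5 and -72.5 bp at H2BC12/H2AC12, H2AC15/H2BC15 and H2AC17/H2BC17.

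**Figure D3:**
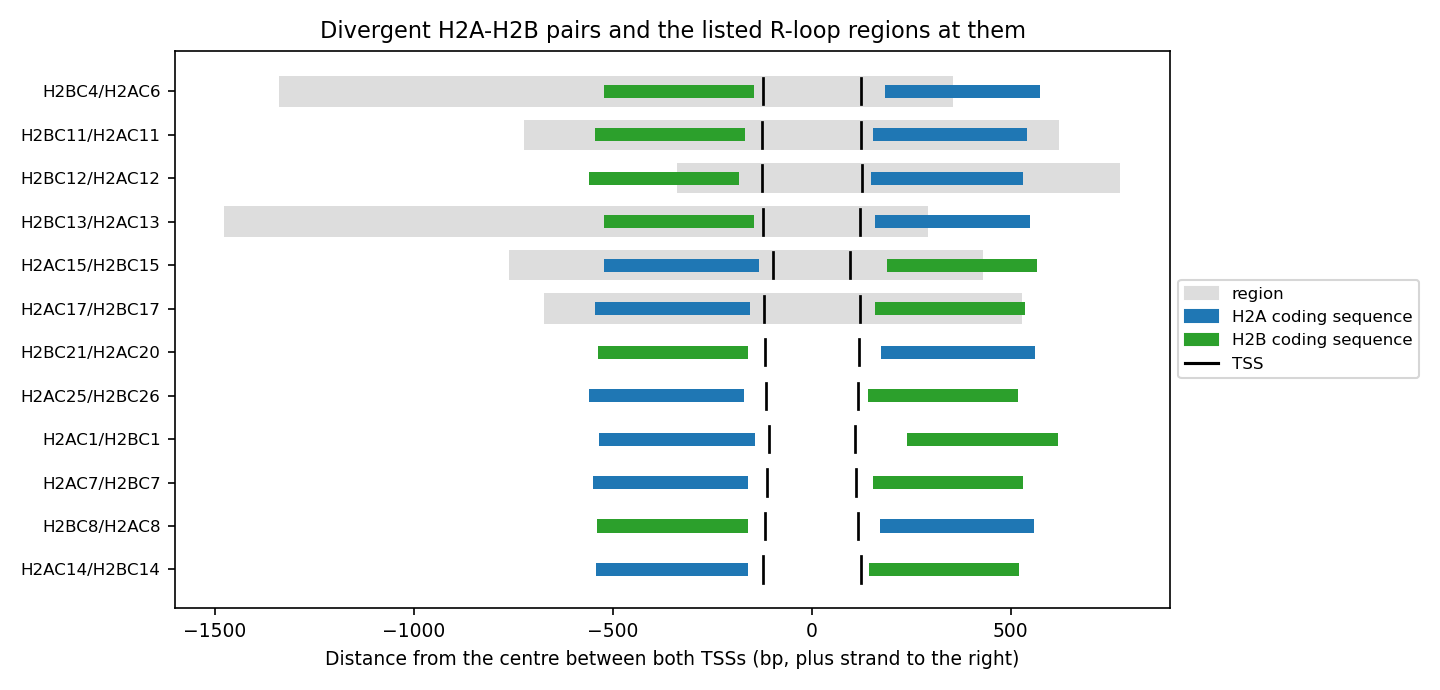
The 12 divergent H2A-H2B pairs aligned on the centre between both canonical TSSs (horizontal axis in bp, plus strand to the right), with TSSs as black ticks, coding sequences as coloured bars and listed regions as grey bars. In the 6 upper pairs 1 region spans both TSSs, while the 6 lower pairs have none and a like spacing of 215 to 245 bp.

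The promoter elements that were counted occurred in pairs with and without a region. The TSSs were a median of 245 bp apart in pairs with a region (194 to 251 bp) and 231.5 bp in those without (215 to 245 bp). CCAAT, the site of the NF-Y factor, occurred in all 12 pairs, 3 to 6 times in those with a region and 3 to 5 times in those without. The octamer, the site of the POU2F1 (OCT1) factor that acts on H2B promoters, was in 4 of 6 pairs with a region and 5 of 6 without. TATAAA was in 5 of 6 and 4 of 6 pairs. GC content between the TSSs had medians of 41.1% (40.7 to 43.7%) and 42.6% (38.3 to 48.9%). The order turned among the chromosome 6 pairs, where the 4 without a region had a median of 38.6% (38.3 to 47.7%). In the 1 kb around the TSS, the 12 genes of chromosome 6 pairs with a region had a GC content of 52.4 to 56.7% and the 8 without had 48.9 to 52.8%, ranges that barely overlap. The windows of paired genes share most of their bases, so these ranges rest on 6 and 4 separate stretches.

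H2BC13/H2AC13 and H2AC14/H2BC14, printed above, form the closest couple of all. Their in-between sequences matched at 213 of 247 aligned positions (86.2%) after inversion, yet the first pair had a region and the second had none, with its nearest midpoint 7318.5 bp from the H2AC14 TSS. H2BC11/H2AC11 and H2BC12/H2AC12 came next at 80.2% identity, and both had a region. Every other couple of pairs was at or below 66.9%.

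H2B genes outside divergent pairs had their region next to another histone class. H2BC5 shared one with H1-4, as above. H2BC9 had the midpoint of the H3C7 region (chr6:26250132-26250722, 591 bp wide) 1187 bp upstream of its TSS, and none of its coding sequence was covered. H2BC18, on chromosome 1, had a region of 775 bp (chr1:149811919-149812693) with the midpoint 32 bp from a TSS and its coding sequence wholly inside. Neither of the 2 unpaired chromosome 6 H2A genes had a region.

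All 4 H3 genes with a region shared it with an H2A or H2B gene. H3C7 was the sole H3 gene whose coding sequence was covered, in full, with the midpoint 208 bp downstream of its TSS. H3C10, H3C12 and H3C13 had 0% of their coding sequence inside a region. Of the 10 chromosome 6 H3 genes, the 7 without a region had their nearest midpoint 10700 to 39877 bp away.

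H4C8 was the only H4 gene with a region (chr6:26285203-26285736). Its region was the narrowest of the 11, at 534 bp, with the midpoint 64.5 bp downstream of a TSS and 96.1% of the coding sequence inside. H4 genes were also the closest to the limit from outside. The nearest gene beyond 3 kb was H4C7 at 3431 bp, followed by H4C9 at 6414.5 bp, H4C12 at 6746.5 bp, H2AC14 at 7318.5 bp and H2BC14 at 7563.5 bp. Just inside the limit stood H3C10 at 2592.5 bp. The 11 chromosome 6 H4 genes without a region had midpoints at a median distance of 19623.5 bp.

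On chromosome 1, 2 of 14 replication-dependent genes had a region (14.3%, 4.01 to 39.9%). This share was lower than on chromosome 6, but the interval overlaps the one there (24.9 to 49.6%). Both genes, H2BC18 and H3C13, shared the same region in the cluster from H2BC18 to H2AC21 (chr1:149782689-149887965). None of the 3 genes of the other cluster (chr1:228424845-228463104), H3-4 and the pair H2AC25/H2BC26, had a region. Sequence copies bear on the first cluster. The share of 31-base words of the 1 kb around the canonical TSS that occur once in the genome was 23.7% at H2BC18 and 18.4% at H3C13, against 48.5 to 100% at the 20 chromosome 6 genes with a region.

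That share was 0% at 7 replication-dependent genes, H4C14, H3C14, H2AC18, H2AC19, H3C15, H4C15 and H2BC12L. None of the 7 had a region (0%, 0 to 35.4%). Reads that align equally well to several places were removed before regions were called, so at these genes the lack of a region and the lack of placeable reads cannot be told apart. Among replication-dependent genes with over 50% unique words, 19 of 61 had a region (31.1%, 20.9 to 43.6%), close to the 31% over all of them. Promoters of chromosome 6 genes without a region were 50.3 to 100% unique, with a median of 97%.

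Distances from replacement genes to the listed regions are given without a background, since the same distance over all protein-coding genes was not computed. They cannot be read as particular to replacement genes. The median distance from a TSS to the nearest midpoint over the 24 genes was 2395407 bp. The H3.3 genes H3-3A and H3-3B had midpoints at 245223.5 and 489910.5 bp. The H2A.Z genes H2AZ1 and H2AZ2 had them at 10112912 and 921622.5 bp. H2AX, whose product is phosphorylated at DNA breaks, was farthest, at 30757851 bp. H2AJ stood at 1136839 bp and H1-10 at 2914773.5 bp.

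The promoter base composition of histone genes with a region differed from that of other genes with one. GC content of the 1 kb around the canonical TSS had a median of 53.2% over the 22 histone genes (43.9 to 56.7%) and 63.7% over the 416 other protein-coding genes with a region. A like difference was seen without a region, at 50.1% over 49 replication-dependent histone genes and 61.3% over 19459 other protein-coding genes. It was thus not particular to genes with a region. The regions themselves showed the same order, with a median GC content of 52.2% at histone promoters (49.6 to 55.3%, n = 11) and 63.8% at other protein-coding promoters (38.5 to 79.3%, n = 367). Replacement histone promoters were more GC-rich, at a median of 58.3%. Widths were close, with medians of 1202 bp (95% interval 775 to 1770 bp) at histone promoters and 1066 bp (999 to 1122 bp) at the others.

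On chromosome 6, histone genes with a region had a higher promoter GC content than those without, 53.5% (43.9 to 56.7%, n = 20) against 49.7% (44 to 53.1%, n = 35). The gap was found in the H2A class, 53.8% against 50.5%, in the H2B class, 55% against 49.1%, and in H1, 54.1% against 49.9%. It was not seen in H3, 48% against 48.7%, or H4, 49.8% for H4C8 against 49.9%. Ranges overlapped in every class except H1, where the 2 genes with a region were at 53.3 and 55% and the 4 without ranged from 45.2 to 53.1%. The ratio of observed to expected CpG was alike, 0.84 and 0.85. Genes that share a region have overlapping windows, so these medians rest on fewer than 20 separate stretches.

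**Figure D4:**
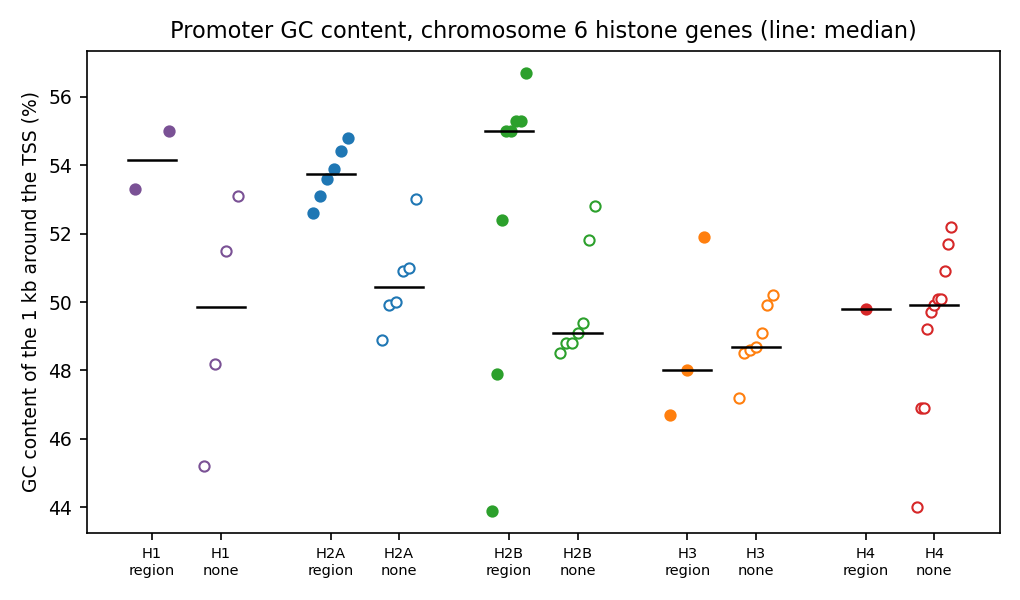
GC content in percent of the 1 kb around the canonical TSS (vertical axis) for the chromosome 6 replication-dependent genes, by class and by whether the gene had a region, 1 point per gene with black lines at the medians. H2A and H2B genes with a region lie mostly above those without (medians 53.8 against 50.5% and 55 against 49.1%), and H4 genes do not separate.

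The same promoter elements were counted in RefSeq promoters (250 bases before to 50 after each start, GRCh38), which matched 85 of the 95 histone genes. CCAAT was in 19 of 20 replication-dependent promoters with a region, 36 of 45 without, 19 of 20 replacement promoters and 34.6% of all 35116 promoters. H4 promoters stood apart from the other classes, with CCAAT absent in H4C8 and present in 3 of the other 12. TATAAA was in 14 of 20 and 29 of 45 replication-dependent promoters and in 11.5% of all. The octamer was in 9 of 20 and 17 of 45, against 1.77% of all promoters. Among H2B promoters it was in 6 of 9 with a region and 8 of 9 without. A match of letters does not show that a factor was bound.

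The 3′ stem-loop is the other hallmark of replication-dependent histone mRNAs. A stem of 6 base pairs starting with GG and a loop of 4 bases starting with T was found within 200 bases after the stop codon in 70 genes, 68 of them replication-dependent, 22 to 67 bases after the stop codon. The most frequent forms are shown in GRCh38 letters on the coding strand, with the stem in capitals, because the most frequent H4 form differs from the others in its stem.
Form in 41 genes, none of them H4: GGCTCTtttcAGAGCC
Form in 10 genes, none of them H4: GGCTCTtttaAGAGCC
Form in 10 genes, all of them H4: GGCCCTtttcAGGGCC
Of these, 15 of 41, 4 of 10 and 1 of 10 genes had a region. Over all forms, 20 of 70 genes with a stem-loop had one (28.6%, 19.3 to 40.1%) and 2 of 25 without (8%, 2.22 to 25%). These 2 were H2AC11 and H2AC15, replication-dependent H2A genes of divergent pairs. H2AX and H3-7, the replacement genes with a stem-loop, had no region.

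Genes that serve histone supply were counted as well. Of 61 such genes, 3 had a region (4.92%, 1.69 to 13.5%), an interval that includes the 2.19% of all protein-coding genes. The count was 2 over the wider 50% of the regions and 2 with nearest-TSS counting. They were 1 of 32 genes for histone gene expression and RNA processing, 1 of 28 for histone chaperones, and the gene of the U7 snRNA. NFYC encodes a subunit of the CCAAT-binding factor NF-Y, and its region (chr1:40691156-40692792, 1637 bp) had the midpoint 34 bp from a TSS. SSRP1 encodes a subunit of the histone chaperone FACT, and its region (chr11:57335831-57336231, 401 bp) had the midpoint 139 bp from a TSS. The NFYC region also held a TSS of NFYC-AS1, and the SSRP1 region had its midpoint within 3 kb of a TSS of P2RX3. Neither region can be assigned to the named factor alone. NPAT, SLBP and LSM11, which act directly on histone genes or their mRNAs, had none.

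RNU7-1 encodes the U7 snRNA, which pairs with histone pre-mRNA downstream of the stem-loop. Its region (chr12:6943754-6945017) was 1264 bp wide with the midpoint 569.5 bp from the RNU7-1 TSS. It covered the whole gene, and also held TSSs of the protein-coding gene C12orf57 and of ENSG00000272173. PTPN6 had a TSS within 3 kb of the midpoint. The region therefore cannot be assigned to RNU7-1 alone. The gene is printed with a run of its histone-pairing 5′ part in capitals.
RNU7-1, chr12:6943816-6943878, plus strand: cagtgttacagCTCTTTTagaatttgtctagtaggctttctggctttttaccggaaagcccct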

How the data were processed

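R-loop CUT&Tag was done by the authors in 1 shCtrl and 1 shA3B library, grouped by sample title. Reads, per the labels and the published methods, were trimmed with cutadapt 4.1, aligned to GRCh38 with Bowtie2 2.2.5, freed of duplicates with Picard 2.27.3 and filtered at a mapping quality of 2 with SAMtools 1.15.1. Peaks were called with SEACR 1.3 and compared with edgeR, whose settings are not given in the sources used here. The deposited list holds genome coordinates only, with no header, count or signal, so the read depth is unknown. Starts were converted to 1-based positions.

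Histone genes, TSSs and canonical transcripts came from GENCODE release 44. Shares were computed with 95% Wilson intervals and medians with binomial rank intervals (Python 3.11.15, scipy 1.17.1). No p-value was computed. Sequence was read from the GRCh38 reference, and unique 31-base words were counted over both strands without alternative contigs. Pair identities came from global alignment (Biopython 1.88, match 1, mismatch -1, gap open -2, gap extend -0.5). Gene assignment and word counting were tested on simulated data. Named genes were every histone gene with a region, the 5 closest without one, set replacement genes, those of the copied chromosome 1 stretch, supply factors with a region and APOBEC3B. One of the set genes is not reported here. NPAT, SLBP and LSM11, HMGN4 and ZNF184 and the other stem-loop or unique-word exceptions were added after their values were seen. The members and lists were chosen with earlier results of these data known.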

Additional observations from a re-analysis of the deposited data

How the results depend on the processing

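Over 10 results, 67 alternative values were computed, and 63 stayed within 1.5 times the reported count or within the reported interval. Some of these values could not move, such as the 0% of replacement genes under rules on distance and width. The limits were also wide, up to 13.8% for that share, so the tally does not show that the results are stable. When each region was counted only for the gene with the nearest TSS, 11.6% of all histone genes and 15.5% of replication-dependent genes had a region, and the number of pairs with both genes marked was 0. This follows from the construction, since each of the 6 pairs then keeps 1 gene. With only chromosome 6 genes, chosen after seeing the data, 36.4% of the histone genes had a region. Within 1 kb 18 genes remained, without H3C13, H1-4, H2BC9 and H3C10, and with a TSS inside the region 19 remained. The wider 50% of the regions, in place of a stricter threshold, marked 17 genes and no H4 gene. Replacement genes had 0 under each of these rules on distance, width and nearest TSS, and chromosome 6 holds none of them. That count was fixed in advance, since the nearest midpoint to any replacement gene was 58785 bp from its TSS. When genes were instead classed by the stem-loop, 8% of those without one had a region, H2AC11 and H2AC15. Depth, direction and the spread between replicates cannot be read from the list, and the threshold behind it is unknown. With 1 library in each group, leaving out a library or pairing libraries could not be done.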
